A study of Sus scrofa with 22 samples.

Results

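Fatty acid binding proteins (FABPs) and stearoyl-CoA desaturase (SCD) were followed in the small intestine of piglets given chemotherapy. The set holds every gene on the array whose pig symbol is FABP and a number, together with SCD, which gave 8 genes (FABP1 to FABP7 and SCD) of 3029 with a symbol, read by 31 probes. The FABP genes belong to it by name. FABP3 and SCD had stood out between piglets given busulfan plus cyclophosphamide and their untreated piglets in earlier results of these data, so for both genes the comparisons that use the untreated piglets of that experiment are given as a description, with no test.

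FABPs are small cytosolic carriers that hold fatty acids, bile acids or other lipids in water-soluble form between membranes, organelles and the nucleus. Enterocytes, the absorptive cells that line the villi, take up dietary fat with the help of the liver type (FABP1) and the intestinal type (FABP2), and the ileal type (FABP6) carries bile acids in the last part of the small intestine. SCD is the enzyme of the endoplasmic reticulum that places a double bond in saturated fatty acids and so makes oleate and palmitoleate for membranes, triglycerides and cholesterol esters.

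RNA of 22 piglets from 2 separate experiments was measured on 22 two-colour arrays. BUCY treated piglets (n = 5) received busulfan plus cyclophosphamide, both of which alkylate DNA, and were set against untreated piglets from the BUCY experiment (n = 5). DOX treated piglets (n = 6) received a single dose of doxorubicin, a topoisomerase II inhibitor, and were set against untreated piglets from the DOX experiment (n = 6). All were specific-pathogen-free Large White × Danish Landrace crosses, described as 3 days old, had suckled until delivery, and carried a stomach tube and a jugular catheter placed under anaesthesia before any drug. The sources used here give no doses, time of sampling, intestinal segment, litter or feeding, and do not say to which point of the study the age refers. The 2 untreated groups come from different experiments, so a difference between them cannot be told apart from whatever else differed between the experiments.

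Each value is a log2 ratio of the piglet's RNA (Cy5) to a pool of all samples (Cy3) on the same array, so 0 is the level of the pool. Ratios of different genes were not compared as levels. Effects are differences between group means of these ratios, tested with limma over 24767 genes and called at a Benjamini-Hochberg adjusted p under 0.05. The share of probes read well above background was 59.7% to 72.5% per array, and precision is limited by how many arrays each group has. BUCY treated piglet 3 had the lowest share and also the lowest median Cy5 signal, 88 in a range up to 210. BUCY treated piglets 2 and 3 stood apart from the other arrays on the second principal component (55.4 and 67.6, with all others between -44.7 and 28.5), and results that rest on them are given with and without them. The 22 arrays lay on 7 slides. In whole tissue, fewer cells of a type and less RNA per cell cannot be told apart.

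All of the genes except FABP7 were well above background on 22 of 22 arrays and were tested. FABP7, the brain-type carrier, reached that level on 4 of 22 arrays, 0 BUCY treated, 2 untreated of the BUCY experiment, 0 DOX treated and 2 untreated of the DOX experiment, and was not tested. Its log2 ratios lay between -0.33 and 0.32 on all arrays. None of the 8 genes had a saturated spot; FABP1, the brightest, reached at most 64.6% of the saturation value.

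Across the set, the measurements that stood out were low values of FABP3 and SCD in untreated piglets of the BUCY experiment, next to values near the pool in all other groups. FABP6 and FABP1 were also lower in those untreated piglets than in untreated piglets of the DOX experiment. No tested member was called after DOX: 0 of 7 were called (limma), against 0.868% of all genes, and 0 of 7 had an unadjusted p under 0.05. After BUCY, 0 of the 5 members open to a test were called, with 0 at an unadjusted p under 0.05, against 17.3% of all genes.

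**Figure D1:**
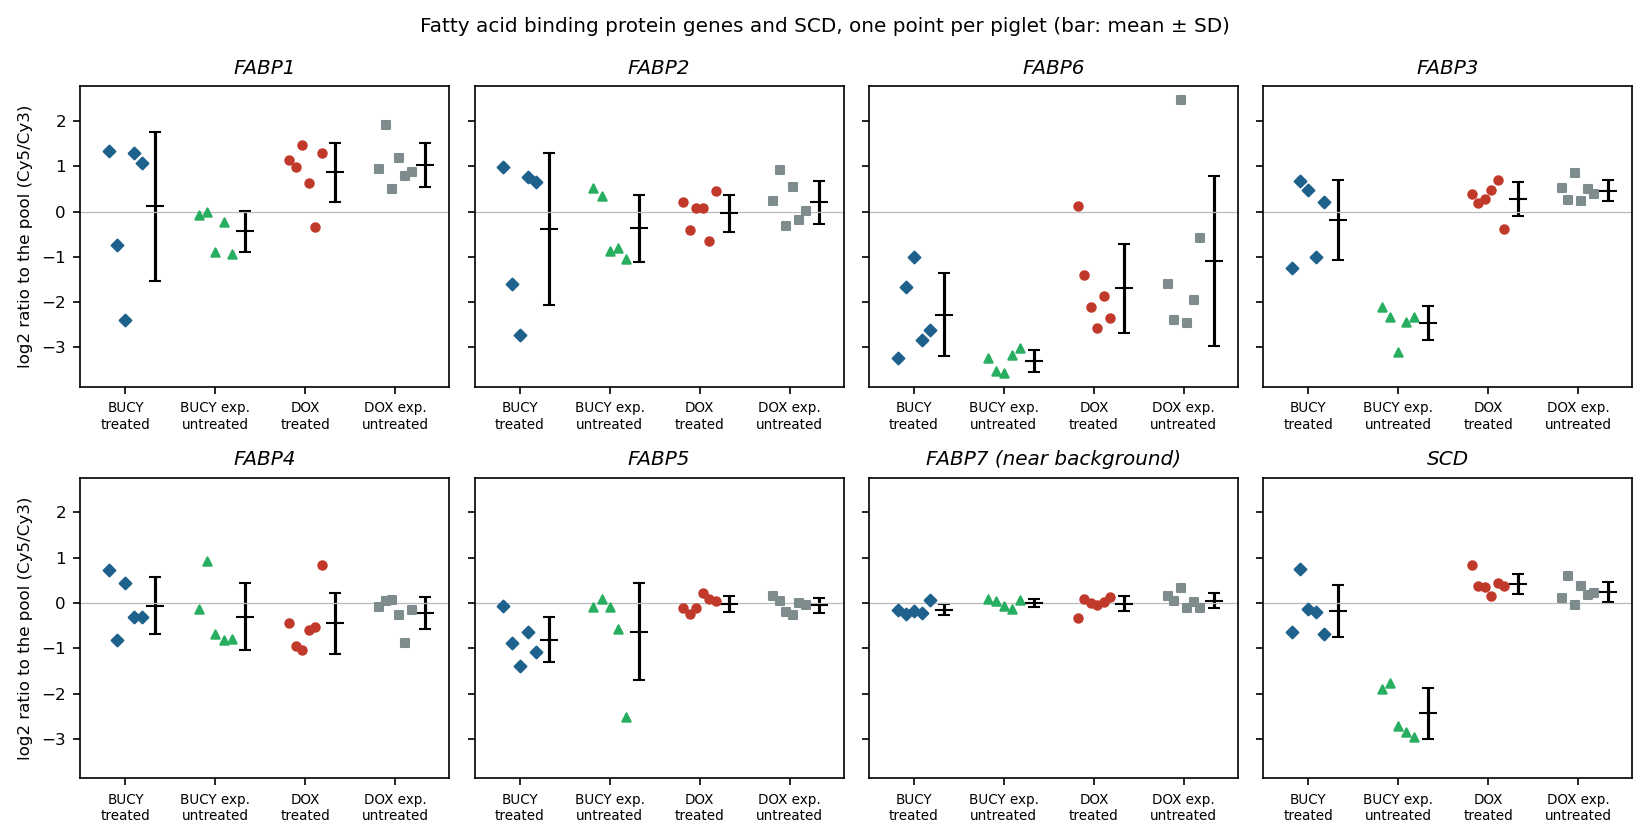
Log2 ratio to the pool of the 8 genes in each piglet, in BUCY treated piglets, untreated piglets of the BUCY experiment, DOX treated piglets and untreated piglets of the DOX experiment; points are piglets and the bars are mean ± SD (n = 5, 5, 6 and 6). FABP3 and SCD lie below -1.7 in all 5 untreated piglets of the BUCY experiment and above -1.3 in all other piglets, FABP1 is lowest in BUCY treated piglet 3, and FABP2 in BUCY treated piglets 2 and 3.

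FABP1 and FABP2, the carriers of the absorptive enterocyte, varied most within the BUCY treated group. FABP1 had log2 ratios of 1.34, -0.75, -2.39, 1.29 and 1.08 in BUCY treated piglets 1 to 5, against -0.08, -0.01, -0.89, -0.23 and -0.95 in untreated piglets of the BUCY experiment. Treated piglets 1, 4 and 5 lay above every untreated one, and treated piglet 3 lay below all of them. The means were 0.11 ± 1.65 in BUCY treated and -0.43 ± 0.45 in untreated piglets (SD, n = 5 each), a difference of 0.54 (95% interval -0.56 to 1.65; limma adjusted p = 0.509). Without BUCY treated piglets 2 and 3 the difference was 1.67 (adjusted p = 0.00672), past the threshold. Those piglets were set apart on these same data and held the lowest treated values, so leaving them out raises the difference by construction.

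FABP2 had log2 ratios of 0.98, -1.61, -2.72, 0.76 and 0.65 in BUCY treated piglets, against 0.52, 0.35, -0.88, -0.80 and -1.05 in untreated piglets of the BUCY experiment. Treated piglets 2 and 3 were lowest, and the groups overlapped. The difference was -0.02 (95% interval -1.14 to 1.10; limma adjusted p = 0.988), and 1.17 (adjusted p = 0.0566) without piglets 2 and 3. The mean log2 ratio over 9 other enterocyte markers was -1.38 and -1.81 in BUCY treated piglets 2 and 3 and between -0.53 and 0.11 in the other treated piglets, against 0.23 to 0.64 in untreated piglets. Of these 9 markers, which include the brush-border enzymes ANPEP, DPP4 and DPEP1, 6 fell and 0 rose after BUCY. With slide as a fixed block 2 fell, DPEP1 and TMPRSS15, and without piglets 2 and 3 only DPEP1 of the 9 did. The part of enterocyte number in the FABP1 and FABP2 values was not tested.

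After DOX neither enterocyte carrier was called. FABP1 ranged from -0.34 over a median of 1.06 to 1.46 in DOX treated piglets, against 0.51, 0.91 and 1.92 (lowest, median, highest) in untreated piglets of the DOX experiment. The groups overlapped, with a difference of -0.17 (95% interval -1.18 to 0.84; limma adjusted p = 0.908). FABP2 ranged from -0.65 over a median of 0.08 to 0.46 in DOX treated piglets, against -0.32, 0.12 and 0.92 in untreated ones. Its difference was -0.24 (95% interval -1.26 to 0.78; limma adjusted p = 0.868).

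Between the untreated groups, FABP1 was lower in the BUCY experiment. All 5 untreated piglets of the BUCY experiment were below 0 and all 6 of the DOX experiment above 0.5, so the groups did not overlap. The difference was -1.46 (SE 0.51; 95% interval -2.52 to -0.41; limma adjusted p = 0.0387). The call is close to the threshold: it was lost with slide as a fixed block (-1.39, adjusted p = 0.160), with the scan day as block instead (-1.48, adjusted p = 0.0538) and when DOX-experiment untreated piglet 1, 2, 4, 5 or 6 or BUCY-experiment untreated piglet 3, 4 or 5 was left out (-1.57 to -1.29 over all single piglets left out). Over all other settings and probes run, the call was lost in 13 and kept in 17, among them a fit of only the compared groups. On the 2 slides that held both untreated groups the difference was -0.55 and -1.77. FABP2 differed by -0.57 in the same comparison (95% interval -1.64 to 0.50; limma adjusted p = 0.476), with overlapping groups.

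FABP6, the ileal bile acid carrier, had log2 ratios of -3.24, -1.67, -1.0, -2.84 and -2.61 in BUCY treated piglets, against -3.24, -3.52, -3.57, -3.16 and -3.02 in untreated piglets of the BUCY experiment. All 5 treated piglets were above the untreated mean of -3.30, but piglet 1 lay within the untreated range. The difference was 1.03 (95% interval -0.42 to 2.48; limma adjusted p = 0.324). Without BUCY treated piglets 2 and 3, which had the highest treated values, it was 0.40. In the DOX experiment FABP6 ranged from -2.56 over a median of -1.99 to 0.12 in DOX treated piglets, against -2.47, -1.77 and 2.47 in untreated piglets. A single untreated piglet, replicate 3, carried the value of 2.47. The DOX difference was -0.61 (95% interval -1.93 to 0.71; limma adjusted p = 0.702), and leaving out that piglet turned it to 0.10.

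Untreated piglets of the BUCY experiment had the lowest FABP6 of all 4 groups. Their mean was -3.30 ± 0.24 (SD, n = 5), against -1.09 ± 1.87 in untreated piglets of the DOX experiment (n = 6), and the groups did not overlap. The difference was -2.21 (SE 0.67; limma adjusted p = 0.0181), and between -2.49 and -1.50 with single piglets left out, past the threshold each time. It missed the threshold with a trended, robust variance (adjusted p = 0.0599) and without the 6 arrays whose title ends in a suffix (adjusted p = 0.0664). FABP6 was dim in the BUCY experiment, though well above background on every array. Its Cy5 signals there were 133 to 255.5 in untreated and 173 to 284 in treated piglets. Untreated piglets of the DOX experiment had 362 to 17953. FABP1 and FABP6 were the 2 called of the 5 members open to this test, both lower, where 25.2% of all genes were called, 12.2% were called lower and 9.01% lay lower with no overlap.

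SLC10A2, the transporter that brings bile acids into ileal enterocytes, is the partner of FABP6 in that pathway. Its log2 ratios were -1.01, -0.62, -1.02, -0.55 and -0.18 in BUCY treated piglets, against -1.16, -0.96, -1.20, -1.17 and -0.98 in untreated ones, a difference of 0.42 (limma adjusted p = 0.236). It fell by 1.04 on the log2 scale after DOX (limma adjusted p = 0.0217), and this call was lost under a fixed slide block (adjusted p = 0.100) and when single piglets were left out (adjusted p up to 0.0714). Between the untreated groups SLC10A2 was lower in the BUCY experiment by a log2 difference of -1.90 (limma adjusted p = 3.42e-06). GUCA2A, the other listed gene that could be tested here, was higher in untreated piglets of the BUCY experiment, a call lost with slide as a fixed block. The plot of gene pairs shows that the piglet with the highest FABP6, at 2.47, had an SLC10A2 of 0.45, below 3 of the other untreated piglets of its experiment.

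**Figure D2:**
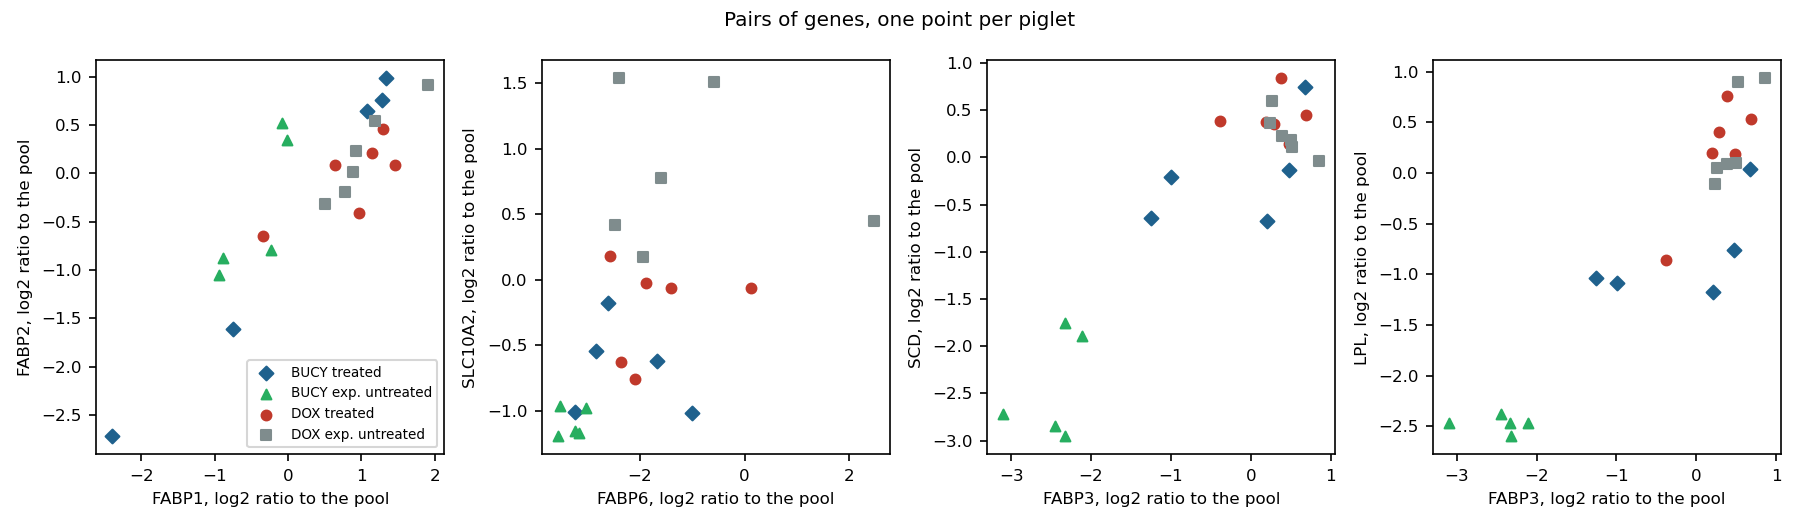
Log2 ratios to the pool of 4 pairs of genes, FABP1 with FABP2, FABP6 with SLC10A2, FABP3 with SCD and FABP3 with LPL, one point per piglet and one marker per group. The 5 untreated piglets of the BUCY experiment lie apart at the low end in both plots with FABP3 on the horizontal axis, and BUCY treated piglet 3 is the lowest of all 22 for both FABP1 and FABP2.

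FABP3, the carrier known from heart and skeletal muscle, had log2 ratios of -1.25, 0.68, 0.48, -0.99 and 0.21 in BUCY treated piglets, against -2.11, -2.33, -3.10, -2.45 and -2.33 in untreated piglets of the BUCY experiment. Every treated piglet lay above every untreated one. Means were -0.18 ± 0.88 in BUCY treated and -2.46 ± 0.38 in untreated piglets (SD, n = 5 each), a 4.88-fold difference (log2 2.29, SE 0.30). Of all genes, 3.19% lay higher after BUCY with no overlap, from which nothing is read for FABP3, as it was chosen on this contrast. The difference lay between 2.07 and 2.56 with single piglets left out, was 1.78 without BUCY treated piglets 2 and 3, and was 1.85, 2.19 and 2.54 within the 3 slides that held both groups.

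Set beside the DOX experiment, the low group of FABP3 is the untreated one. DOX treated piglets ranged from -0.38 over a median of 0.33 to 0.69, against 0.24, 0.44 and 0.86 in untreated piglets of the DOX experiment. The DOX difference was -0.19 (95% interval -0.75 to 0.38; limma adjusted p = 0.798). In order, the group means were -2.46 in untreated piglets of the BUCY experiment, -0.18 in BUCY treated, 0.28 in DOX treated and 0.46 in untreated piglets of the DOX experiment. The ranges of the last 3 groups overlapped, though BUCY treated piglets 1 and 4 (-1.25 and -0.99) lay below every piglet of the DOX experiment. Untreated piglets of the BUCY experiment were 7.60-fold below those of the DOX experiment (log2 -2.93, SE 0.29), with within-slide values of -3.08 and -2.78. The BUCY effect exceeded the DOX effect by 2.47 (SE 0.40), where 5.87% of all genes were called in that contrast.

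Since the BUCY effect and the comparison of untreated groups share the untreated piglets of the BUCY experiment, their values for a gene are not independent. Of 14 muscle markers tested, 1, the intermediate filament gene DES (log2 1.02, limma adjusted p = 0.0293), rose after BUCY and 0 fell, and 0 were called between the untreated groups. The mean log2 ratio over these markers was 0.11 to 0.92 in BUCY treated piglets, against -0.25 to 0.27 in untreated piglets of the BUCY experiment. The cardiac and slow-muscle genes MYH7 and TNNC1 were well above background on 21 of 22 arrays, at low mean Cy5 signals of 110 and 142. The muscle creatine kinase CKM, ACTA1, ACTC1, TNNT1 and TNNI2 reached that level on 22 arrays. CKMT2 did so on 7, TNNT3 on 3 and MYL2 on 1, and TNNT3 and MYL2 were not tested. The part of muscle tissue in the FABP3 values was not tested.

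FABP4, the adipocyte carrier that macrophages and capillary endothelium also make, showed no called difference in any comparison. Its log2 ratios were 0.72, -0.83, 0.44, -0.31 and -0.31 in BUCY treated piglets, against -0.13, 0.93, -0.68, -0.81 and -0.80 in untreated ones. The groups overlapped, with a difference of 0.24 (95% interval -0.50 to 0.98; limma adjusted p = 0.680). In DOX treated piglets it ranged from -1.04 over a median of -0.57 to 0.85, against -0.88, -0.11 and 0.07 in untreated piglets of the DOX experiment, a difference of -0.24 (95% interval -0.92 to 0.44; limma adjusted p = 0.780). Between the untreated groups the difference was -0.09 (95% interval -0.80 to 0.62; limma adjusted p = 0.892). Of 10 adipocyte markers tested, 2 (LIPE and LPL) rose and 1 fell after BUCY, where 8.21% of all genes rose and 9.05% fell. LIPE and LPL are counted again in the lipid gene lists below. The one that fell was RETN, which encodes the hormone resistin (-1.35, limma adjusted p = 0.0179), and it also fell after DOX (-1.78, adjusted p = 0.0109). ADIPOQ was well above background on 14 of 22 arrays and PLIN1, the lipid-droplet coat of adipocytes, on 0, and the part of fat tissue in the FABP4 values was not tested. Of 7 endothelial markers, PECAM1 (log2 1.27, limma adjusted p = 0.0100) and SELP (0.81, adjusted p = 0.0167) rose after BUCY; without piglets 2 and 3, 0 of 7 passed.

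FABP5, the epidermal type, which is also made by macrophages, had log2 ratios of -0.07, -0.88, -1.38, -0.64 and -1.09 in BUCY treated piglets, against -0.08, 0.09, -0.09, -0.57 and -2.51 in untreated piglets. Untreated piglet 5 was the lowest of all 22, and 4 of the 5 treated values lay below the other 4 untreated ones. The difference was -0.18 (95% interval -0.88 to 0.52; limma adjusted p = 0.753). Without untreated piglet 5 it was -0.65 (adjusted p = 0.0266), past the threshold. That piglet was singled out on these same values and held the lowest untreated one, so leaving it out lowers the difference by construction. FABP5 hardly varied in the DOX experiment, from -0.25 to 0.23 in DOX treated piglets against -0.27 to 0.15 in untreated ones, with a difference of 0.04 (95% interval -0.60 to 0.67; limma adjusted p = 0.973). Between the untreated groups it was -0.58 (limma adjusted p = 0.205), and -0.11 without untreated piglet 5 of the BUCY experiment. Of 10 macrophage markers tested after BUCY, the scavenger receptor CD163 (log2 1.44, limma adjusted p = 1.66e-04) and the endotoxin co-receptor CD14 (0.81, adjusted p = 0.0138) rose, and AIF1 (-0.54, adjusted p = 0.0438) and TYROBP fell. With slide as a fixed block, and without BUCY treated piglets 2 and 3, CD163 and CD14 still rose and 0 of the 10 fell. CD163 (1.31, adjusted p = 5.06e-04) and CD14 (1.26, adjusted p = 0.00118) also rose after DOX, where FABP4 and FABP5 were not called.

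SCD had log2 ratios of -0.64, 0.75, -0.14, -0.21 and -0.68 in BUCY treated piglets, against -1.89, -1.76, -2.72, -2.85 and -2.95 in untreated piglets of the BUCY experiment. The groups did not overlap. Means were -0.18 ± 0.58 in BUCY treated and -2.43 ± 0.56 in untreated piglets (SD, n = 5 each), a 4.76-fold difference (log2 2.25, SE 0.25). The difference was 2.02 to 2.42 with single piglets left out, 1.92 without BUCY treated piglets 2 and 3, and 2.07, 2.67 and 2.27 within the 3 slides that held both groups.

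SCD in the DOX experiment ranged from 0.14 over a median of 0.38 to 0.84 in DOX treated piglets, against -0.04, 0.21 and 0.60 in untreated piglets. Of the 6 treated piglets, 5 lay above the untreated mean, but the groups overlapped and the difference was 0.18 (95% interval -0.28 to 0.65; limma adjusted p = 0.752). Untreated piglets of the BUCY experiment were 6.38-fold below those of the DOX experiment (log2 -2.67, SE 0.23), with within-slide values of -1.78 and -3.16. The BUCY effect exceeded the DOX effect by 2.07 (SE 0.33).

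The probes of each gene gave closely similar differences except for SCD. The 3 FABP3 probes gave BUCY differences of 2.27 to 2.30 although their mean Cy5 signals ran from 3008 to 10900. The 9 SCD probes gave 2.25 down to 0.78, and the 2 dimmest gave 1.19 and 0.78, with untreated differences of -2.08 and -1.02. The dimmest SCD probe was well above background on 2 of the 5 arrays of untreated piglets of the BUCY experiment and on all arrays of the other groups, so its low values there lie near the floor. The 3 FABP1 probes gave BUCY differences of 0.52 to 0.59 and untreated differences of -1.52 to -1.46, the 2 FABP6 probes 0.89 and 1.03 and -2.15 and -2.21, the 4 FABP5 probes -0.18 to -0.13, and the 7 FABP4 probes 0.08 to 0.26. FABP4 and FABP5 are neighbouring genes of related sequence, and cross-hybridisation between family members was not tested.

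**Figure D3:**
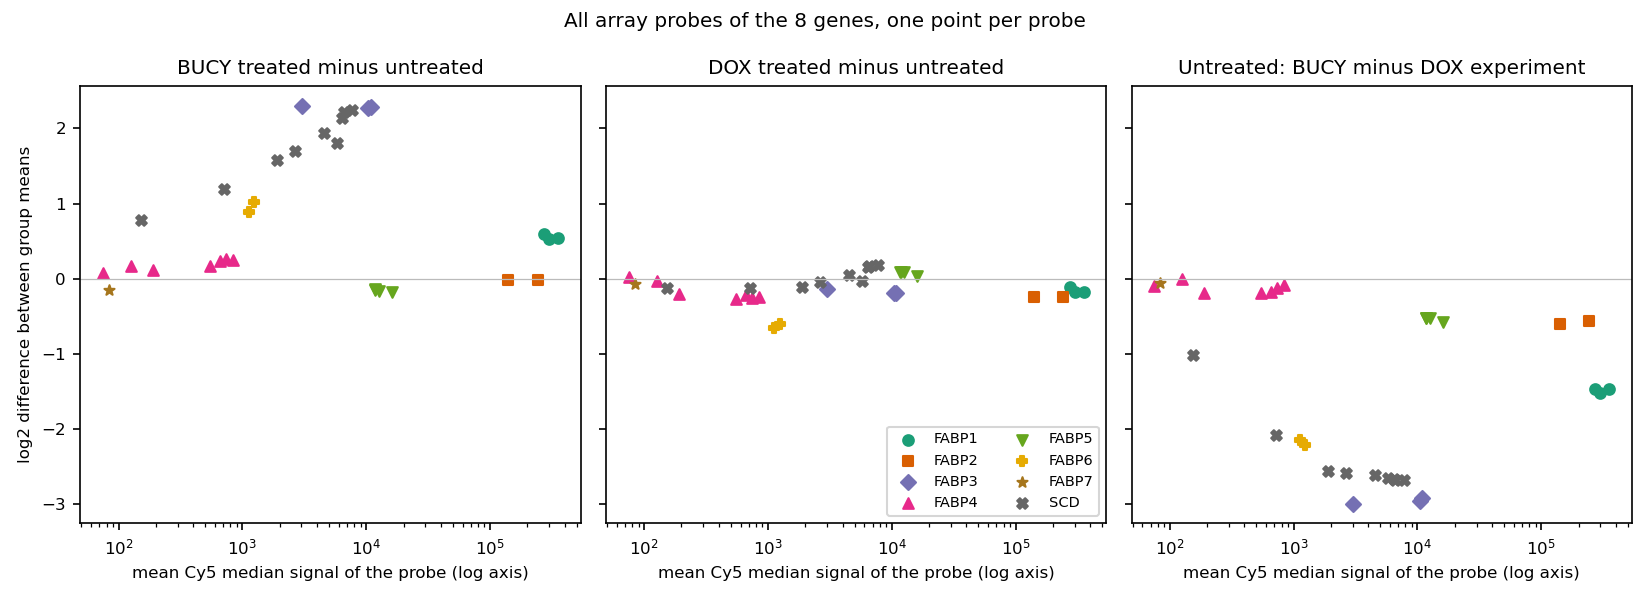
Log2 difference between group means for every probe of the 8 genes against its mean Cy5 signal on a log axis, in the BUCY, DOX and untreated comparisons; each point is a probe and each colour a gene. Probes of a gene lie close together, except that the 9 SCD probes run from 0.78 at the dimmest to 2.25 at the brightest after BUCY.

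Over the 22 piglets, likeness was measured as the mean absolute difference between centred log2 ratios, over 2656 candidate genes with a symbol, as a description. The genes nearest to FABP3 were MAT1A (0.32), which makes the methyl donor S-adenosylmethionine, LPL (0.34), which frees fatty acids from circulating triglyceride, and the mitotic cyclin CCNB1 (0.39), where the median candidate was 1.06 away. SCD was the 5th nearest to FABP3 (0.43), and the genes nearest to SCD were S100A6 (0.42), FABP3 (0.43) and SFN (0.43). FABP2 was the nearest to FABP1 (0.37), followed by MTTP (0.41), which loads lipid onto chylomicrons, and LEAP2 (0.44). FABP2 lay nearest to ABCD3 (0.36), LEAP2 (0.36) and MSMO1 (0.37), with FABP1 4th. FABP4 lay nearest to VCL (0.33), TPD52 (0.36) and CAV1 (0.36), FABP5 to SMAD1 (0.28), TBCC (0.28) and NPC1 (0.29), and FABP6, at larger distances, to MYBL2 (0.64) and HMGB1 (0.65). Depth, slide and group are shared by all genes of an array.

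Genes of fatty acid uptake and activation included 3 of 13 that rose after BUCY and 0 that fell (median log2 change 0.22, against -0.00129 over all genes tested, of which 8.21% rose and 9.05% fell). LPL had log2 ratios of -1.04, 0.04, -0.76, -1.09 and -1.17 in BUCY treated piglets, against -2.47, -2.60, -2.47, -2.38 and -2.47 in untreated ones. All treated piglets lay above all untreated ones, a 3.19-fold difference (log2 1.67, SE 0.27; limma adjusted p = 3.50e-04). ACSS2, which activates acetate, rose by 0.86 (limma adjusted p = 0.0116), and LPIN1, a phosphatidate phosphatase, by 0.48 (adjusted p = 0.0471), the call for LPIN1 being lost without piglets 2 and 3 (0.24, adjusted p = 0.495). After DOX 0 of 13 were called, and 1, SLC27A2, was called higher without BUCY treated piglets 2 and 3.

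Among 7 genes of fatty acid synthesis, elongation and desaturation, 2 rose and 0 fell after BUCY (median 0.35). FASN, the synthase that makes palmitate, had log2 ratios of 0.07, 0.37, 0.23, 0.06 and 0.55 in BUCY treated piglets, against -0.50, -0.55, -0.97, -1.15 and -1.11 in untreated ones. These groups did not overlap, and FASN rose 2.16-fold (log2 1.11, limma adjusted p = 1.24e-04). ACLY, which supplies cytosolic acetyl-CoA, rose by 0.51 (limma adjusted p = 0.0134). Between the untreated groups both were lower in the BUCY experiment, FASN by a log2 difference of -1.28 (adjusted p = 2.23e-06) and ACLY by -0.84 (adjusted p = 5.06e-05). FADS2, another desaturase gene, was well above background on 3 of 22 arrays and was not tested.

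Of 20 genes of triglyceride synthesis, lipid droplets and chylomicron assembly, 2 rose and 1 fell after BUCY (median -0.13). Without piglets 2 and 3 the median turned to 0.34, with 2 that rose and 0 that fell. The mean log2 ratio over the list was -0.65 and -1.19 in BUCY treated piglets 2 and 3 and 0.32 to 0.62 in the other treated piglets, against -0.11 to 0.61 in untreated ones. The lipid droplet coat gene PLIN2 had log2 ratios of -0.68, 0.92, -0.77, -0.18 and 1.10 in BUCY treated piglets, against -1.52, -1.36, -1.28, -1.08 and -1.75 in untreated ones. It rose 2.78-fold with no overlap (log2 1.47, limma adjusted p = 0.00138). LIPE, the hormone-sensitive lipase, rose by 1.0 (adjusted p = 0.00903). APOA1, the main protein of high-density lipoprotein, fell by 1.88 (limma adjusted p = 0.0184), a call lost without piglets 2 and 3 (-0.91, adjusted p = 0.312).

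Of 18 genes of beta-oxidation and ketogenesis, 2 rose and 2 fell after BUCY (median 0.14), and without piglets 2 and 3 the counts were 4 and 0. CPT1A, which admits fatty acids to mitochondria, rose by 0.83 (limma adjusted p = 0.00189), and PDK4, a brake on glucose oxidation, by 1.61 (adjusted p = 0.00501). DECR1, which removes double bonds for oxidation, fell by 1.0 on the log2 scale (adjusted p = 0.00469), and HADH fell as well; the call of HADH was lost with slide as a fixed block and without piglets 2 and 3. Of 14 nuclear receptors, SREBPs and partners, PPARGC1A, a coactivator of oxidative metabolism, was the 1 called after BUCY, where it fell by 1.45 (limma adjusted p = 6.93e-04; without piglets 2 and 3 INSIG1 also rose), and the 1 called after DOX, where it fell by 0.96 (adjusted p = 0.0473; up to 0.128 with single piglets left out).

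Of 7 genes of cholesterol synthesis and uptake, 2 rose and 0 fell after BUCY, among them SQLE, which oxidises squalene (log2 0.64, limma adjusted p = 0.0467), and 0 of 7 were called with slide as a fixed block or without piglets 2 and 3. Of 6 other members of the lipid-binding family, such as the retinoid carrier RBP2, 0 were called after BUCY or DOX (limma), and without piglets 2 and 3 RBP2 rose after BUCY; RBP5 had the smallest p, with a DOX difference of -0.64 (adjusted p = 0.0944). The loess step bears on the lipid genes. With median centring in its place the median of all genes after BUCY moved to -0.125. Of 13 named lipid genes called after BUCY, 9 then missed the threshold, all of them rises. They were FASN (0.55, limma adjusted p = 0.185), PLIN2 (1.01, adjusted p = 0.0773), CPT1A (0.31, adjusted p = 0.519), ACSS2, LPIN1, LIPE, PDK4, SQLE and ACLY. ACLY turned to -0.04 (adjusted p = 0.939). Of the rises, LPL alone stayed past the threshold (1.24, adjusted p = 0.0151). The falls of APOA1 (-2.56, adjusted p = 0.0224), DECR1 (-1.41, adjusted p = 0.0163) and PPARGC1A (-1.88, adjusted p = 0.00158) stayed past it and were larger. FABP3 and SCD were at 1.79 and 1.75. Among the genes named by the rule, slide as a fixed block ended the BUCY calls of LPIN1, APOA1, SQLE, RETN, DES, AIF1, DPP4 and SELP. Without BUCY treated piglets 2 and 3 those of LPIN1, APOA1, SQLE, DECR1, RETN, DES, AIF1, TMPRSS15, DPP4, PECAM1 and SELP were lost, on fewer piglets. Leaving out 1 piglet also ended the BUCY call of LPIN1, APOA1, SQLE, DES, AIF1, SELP (treated piglet 3) and RETN (untreated piglet 2, adjusted p = 0.0564), and median centring ended those of the marker genes DES, CD163, CD14, SELP and CDK1.

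**Figure D4:**
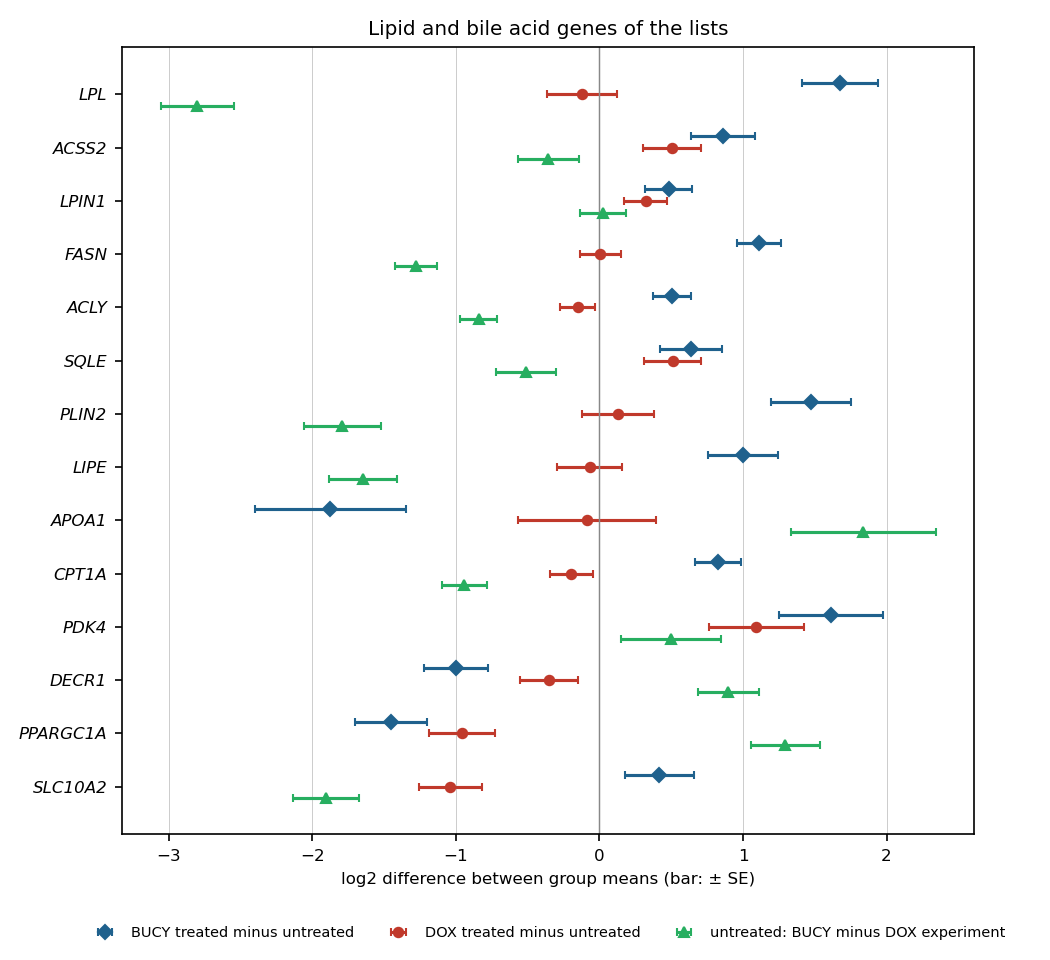
Log2 difference between group means (± SE from limma) of 14 named genes of lipid and bile acid handling, for BUCY treated minus untreated, DOX treated minus untreated, and the untreated groups (BUCY minus DOX experiment). LPL, FASN and PLIN2 lie above 1 after BUCY, near 0 after DOX and below -1 between the untreated groups; the BUCY and untreated comparisons share the untreated piglets of the BUCY experiment.

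Proliferation markers were lowest in the same group as FABP3, SCD and FABP6, untreated piglets of the BUCY experiment. Of 8 tested, 7 rose and 0 fell after BUCY, where 8.21% of all genes rose. All 8 were lower in untreated piglets of the BUCY experiment than in those of the DOX experiment, where 12.2% of all genes were. The list was chosen with earlier results of these data known, so these counts are a description. The mean log2 ratio over the 8 markers was -0.53 to 0.49 in BUCY treated and -1.45 to -0.86 in untreated piglets of the BUCY experiment. It was -0.36 to 0.32 in DOX treated and 0.20 to 0.85 in untreated piglets of the DOX experiment. BIRC5 (log2 1.72, limma adjusted p = 1.82e-05), CCNB1 (1.68, adjusted p = 1.21e-04) and CDK1 (1.29, adjusted p = 3.32e-04) led the BUCY increases. Of 9 enterocyte markers, 6 fell and 0 rose after BUCY, where 9.05% of all genes fell. The smallest p were those of DPEP1 (-2.79, limma adjusted p = 4.29e-04), TMPRSS15 (-1.96, adjusted p = 0.00335) and DPP4 (-1.67, adjusted p = 0.00556). The DPP4 call was lost with slide as a fixed block (adjusted p = 0.0599), and those of DPP4 and TMPRSS15 without piglets 2 and 3. Between the untreated groups 4 of the 9 were called higher in the BUCY experiment and 1 lower. With slide as a fixed block 1 was higher and 1 lower. The part of dividing or absorptive cells in the FABP and SCD values was not tested.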

How the data were processed

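Small-intestinal RNA of 22 piglets was read on two-colour Agilent arrays, piglet in Cy5 and pool in Cy3, with no dye swap. The deposited scanner files hold median spot and background intensity, a log10 ratio and other columns of 0 or 1 flags, made with Agilent Feature Extraction 10.7.3.1, per the file headers. A table of log2 ratios deposited by the authors has the same direction as the scanner files (r 0.974 to 0.998 per array, column medians 0.00146 to 0.018); limma is named in the submitters' processing notes, with settings not given in the sources used here. It served as an alternative; 0 of its columns went unused.

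Median intensities were corrected by normexp (offset 50) and loess-normalised within arrays with limma 3.58.1 in R 4.3.3. Control spots had weight 0, and outlier spots (3 to 52 per array) were dropped. Probe accessions were matched to RefSeq pig genes (Sscrofa11.1): 6700 of 43603 probes (15.4%) received a symbol, and the rest kept the array's identifier. The brightest probe stood for each gene, tested if well above background in Cy5 on at least 5 arrays. One limma model of the 4 groups (lmFit, eBayes, two-sided; 18 residual and 3.38 prior degrees of freedom) was fitted to all arrays, with Benjamini-Hochberg adjustment over 24767 genes, and p-values measure the spread between piglets. On simulated data of that size it recovered 86 of 100 genes changed 2-fold and 99 of 100 changed 4-fold in the BUCY comparison. In the DOX comparison it recovered 93 and 98. False calls numbered 12 for BUCY and 6 for DOX. Recovery at the spread of each member was not tested. FABP6 differed 2.04-fold after BUCY (SE 0.70 on the log2 scale) and was not called.

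The members and the 14 gene lists were chosen with earlier results of these data known. Named are all members, of each list up to 3 called genes by smallest p for BUCY and 2 for DOX (or the smallest p where none passed), and 3 genes most like each member; HADH, TYROBP, RBP2, GUCA2A, ANPEP, FADS2, SLC27A2, INSIG1 and marker genes given by detection only were named after their values were seen. Some genes that this rule names are not reported here. Replicate numbers follow array order and pair no piglets. Figures were drawn with matplotlib 3.10.9.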

Additional observations from a re-analysis of the deposited data

Results flagged for a closer look

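The BUCY effect differed from the DOX effect for FABP3 by 2.47 and for SCD by 2.07 on the log2 scale, untested here because both were chosen on the BUCY comparison, which is part of it. By limma the same difference between effects passed the threshold for LPL (1.79, adjusted p = 0.00554), FASN (1.11, adjusted p = 0.00406), ACLY (0.66, adjusted p = 0.0339), PLIN2 (1.35, adjusted p = 0.0371), CPT1A (1.02, adjusted p = 0.00868) and SLC10A2 (1.46, adjusted p = 0.0104). Among marker genes it passed for DPEP1 (-2.79, adjusted p = 0.0101), TMPRSS15 (-2.48, adjusted p = 0.0114), SELP (1.14, adjusted p = 0.0290), BIRC5 (1.90, adjusted p = 3.50e-04), CCNB1 (2.29, adjusted p = 4.24e-04) and CDK1 (1.60, adjusted p = 0.00217). The genes other than FABP3 and SCD were named for a small p in the BUCY or DOX effect. Both effects are part of this difference, so passing here is no independent support. Over all genes, median centring left 104 calls of the difference, against 1454.

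Single piglets lay far from the rest of their group in 3 cases among the members: FABP4 in DOX treated piglet 6 (0.85) and in untreated piglet 5 of the DOX experiment (-0.88), and FABP5 in untreated piglet 5 of the BUCY experiment (-2.51). Among other named genes the same held for LPL in DOX treated piglet 6 (-0.86), DES in DOX treated piglet 3 (-1.39), DPEP1 in BUCY treated piglet 4 (0.40) and CD14 in BUCY treated piglet 5 (1.36). In untreated piglets of the BUCY experiment it held for LPIN1 in piglet 4 (0.45), CDK1 in piglet 4 (-2.14), RETN in piglet 2 (0.94) and CD14 in piglet 5 (0.41). These are 11 of 140 groups examined, where chance gives about 7.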

How the results depend on the processing

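Of 946 values of 28 single-member differences under other settings, 917 stayed on their side of the threshold (or, untested, moved by less than the spread between piglets), 47 of them with a changed sign of an uncalled difference, while 15 dropped below it, 3 passed it, 11 moved and 0 reversed a called direction. Part of the 917 was fixed in advance. Quantile normalisation of mean intensity changes no ratio, and leaving out BUCY treated piglets 2 and 3 does not change the size of the DOX and untreated differences. Members open to a test and past the threshold numbered 0 after DOX in every setting run, 0 after BUCY (1 without BUCY treated piglets 2 and 3, FABP1, and 1 without untreated piglet 5, FABP5), 0 for the difference between effects (1 without piglets 2 and 3, FABP1) and 1 to 2 between untreated groups. With FABP3 and SCD, whose calls are no evidence of stability, they numbered 0 after DOX, 2 to 3 after BUCY, 2 for the difference between effects and 3 to 4 between untreated groups with single piglets left out; median centring left 1 for the difference between effects, against 2. FABP1 between untreated groups also missed the threshold with median centring (adjusted p = 0.138), Cy5 alone (-0.74, adjusted p = 0.111) and no filter (adjusted p = 0.0563), and without BUCY treated piglets 2 and 3 its difference between effects was called (1.84, adjusted p = 0.0248). SCD after BUCY was 1.74 as the mean of all probes.

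All-gene limma counts moved by over 1.5 times as follows. DOX calls (215) numbered 89 with median centring, 129 with Cy5 alone, 142 with detection on all arrays, 349 and 356 with slide as a fixed or random block, 742 with only the compared groups, 1269 with array weights, 493 without BUCY treated piglets 2 and 3, and 119 to 356 with single piglets left out. BUCY calls (4275) numbered 2299 with slide as a fixed block, 890 with only the compared groups, 1483 without suffix arrays, 1122 without piglets 2 and 3, and 2283 to 6289 with single piglets left out. Calls of the difference (1454) numbered 104 with median centring, 723 with Cy5 alone, 330 without suffix arrays, 730 without piglets 2 and 3, and 935 to 2392 with single piglets left out. Untreated calls (6243) numbered 3849 with median centring. Median centring left 16.8% of BUCY calls higher, against 47.6%, 30.3% of DOX calls against 43.7%, 36.5% of calls of the difference against 53.5%, and 37.8% of untreated calls against 51.7%. The causes were not tested, except that quantile normalisation of mean intensity leaves log ratios unchanged by construction, and that slide 4 holds BUCY treated piglet 2 alone, which a fixed slide block takes out. No paired analysis was possible because the groups share no piglet numbers in the labels.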
